A study of Canis lupus familiaris with 25 samples.

Results

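The survival comparison set 5 canine mammary carcinomas from dogs that lived 3 months or less after surgery against 4 carcinomas from dogs that lived 8 months or more. These 9 arrays were selected by the survival label, out of 13 carcinomas and 25 arrays in the series. The groups were set with earlier results of these data known. The other carcinomas, 3 with a survival of 5 to 6 months and 1 with no time given, were left out of the comparison and are described beside it. Every carcinoma was a primary tumour of a dog with an affected lymph node, the labels name no treatment beyond surgery, and each array came from a different dog. All 13 carcinomas were labelled negative for oestrogen receptor alpha. Tissue sections had been macrodissected for a high share of tumour cells, so that stroma, vessels and immune cells still contributed RNA, and fewer cells of a type and less RNA per cell cannot be told apart in such specimens. Non-neoplastic mammary gland was available from 4 of the dogs with short survival and 3 of the dogs with long survival.

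The short survival group held dogs 4 and 10 at 3 months, dogs 7 and 9 at 2 months and dog 13 at 1 month. The long survival group held dogs 1 and 5 at 8 months and dogs 12 and 14 at 9 months. The carcinomas of the short group measured 2.1 ± 1.43 cm (SD, n = 5) and those of the long group 3.25 ± 1.26 cm (SD, n = 4), a difference within the spread (exact permutation test, 2-sided, p = 0.333). Age was 13.6 ± 2.3 years (SD, n = 5) against 11.8 ± 3.4 years (SD, n = 4), with an exact 2-sided permutation p of 0.413, where the smallest p the design allows is 0.0159. The tumour of dog 9 was labelled negative for HER-2 and the affected node of dog 7 was axillary, whereas the other 8 carcinomas were HER-2 positive and the other 8 nodes inguinal. The dogs were of several breeds, and breed was not used as a term in any test. A title suffix of unstated meaning marked 4 of the 5 short survival arrays and 2 of the 4 long survival arrays. Array medians lay between 3.568 and 3.758 on the log2 scale, 47.5% to 48.8% of probe sets exceeded log2 4, and the number of dogs limits the precision. The median correlation between arrays was 0.862 within the groups and 0.865 between them.

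Canine mammary carcinoma arises in a gland built, like the human breast, of luminal cells that face the duct and a basal layer of contractile myoepithelial cells that produce basement membrane. Loss of the myoepithelial layer accompanies invasion, and proliferation rate, hormone receptors, cell adhesion and stromal reaction are the properties most often set against outcome. CTNNAL1 encodes alpha-catulin, a relative of the alpha-catenins that is linked to the cytoskeleton. PENK encodes proenkephalin, the precursor of the enkephalin opioid peptides.

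Of 8604 genes tested, 0 were called at an adjusted p under 0.05 (0%, limma with Benjamini-Hochberg adjustment over 20813 probe sets). The smallest adjusted p was 0.1264, for MIA, and every other probe set was at 0.9997 or above. At an unadjusted p under 0.05 there were 215 genes (2.5% of those tested), with 58 higher (0.674%) and 157 lower (1.82%) at short survival. The count of 215 became 146 without dog 14, 166 without dog 5, 324 without dog 13 and 451 with array weights. In 78 genes (0.907%) the 5 short survival carcinomas did not overlap the 4 long survival carcinomas, 27 with every short survival value higher (0.314%) and 51 with every one lower (0.593%). With 126 ways to split the carcinomas into 5 and 4, labels unrelated to the values would separate a gene with probability 0.0159. The 0.907% seen is below that share, and the 2.5% is below the share that a threshold of 0.05 allows. The median difference over all genes was -0.0034 on the log2 scale, and the median standard error was 0.40. In what follows, higher and lower describe group means, and no gene passed the adjusted test in the comparison as designed. Without dog 10, 2 genes were called, MIA at an adjusted p of 0.02155 and PENK at 0.03187 (limma), and with array weights MIA alone was called at 0.03886.

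**Figure D1:**
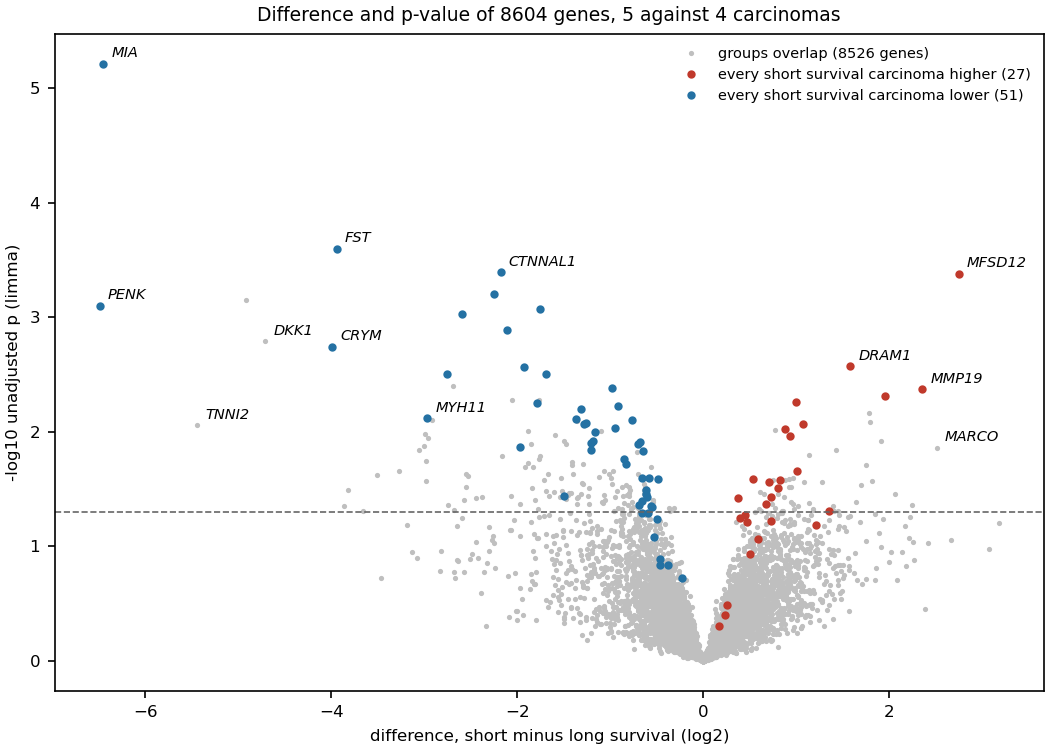
Each point is 1 of 8604 genes, with the difference in log2 signal between 5 short survival and 4 long survival carcinomas on the horizontal axis and -log10 of the unadjusted limma p on the vertical axis; the dashed line marks p = 0.05 and colours mark the 78 genes whose groups did not overlap. MIA, at a difference of -6.46, has the smallest p, and more of the non-overlapping genes lie on the lower side (51) than on the higher side (27).

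The genes with the largest differences were lower at short survival. MIA, a small secreted protein first described in melanoma and cartilage, read 3.13, 3.81, 3.30, 6.28 and 3.96 in dogs 4, 7, 9, 10 and 13, and 9.00, 11.74, 10.21 and 11.25 in dogs 1, 5, 12 and 14. The groups were separated by a gap of 2.73, and 4 of the 5 short survival values lay below log2 4, near the low end of the array's range. MIA thus passed the filter on low values through the long survival carcinomas, the group where it was higher. The difference was -6.46 ± 0.74 (SE) on the log2 scale, with a 95% interval from -8.11 to -4.80. PENK read 3.09, 2.59, 2.93, 9.04 and 2.63 in the same short survival dogs and 9.91, 9.48, 9.77 and 13.02 in the long survival dogs. Only dog 10 among the short survival carcinomas had a PENK signal above log2 4, and it came within 0.44 of the lowest long survival value. PENK too passed the filter through the long survival carcinomas. The PENK difference was -6.49 ± 1.36 (SE), with an adjusted limma p of 0.9997. All 3 tested PENK probe sets had the same sign, but the others differed by only -2.05 ± 0.65 and -2.545 ± 0.74 (SE).

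FST, the secreted follistatin that binds and neutralises activin, read 4.94, 2.32, 3.86, 3.51 and 5.36 at short survival and 7.31, 9.53, 6.92 and 8.00 at long survival. The gap between the groups was 1.56 and the difference -3.94 ± 0.71 (SE). FST lay below log2 4 in 3 of the 5 short survival carcinomas and passed the filter through the long survival ones. CRYM, a cytosolic protein that binds thyroid hormone, read 6.10, 9.40, 5.63, 7.92 and 4.34 against 9.71, 11.93, 10.13 and 10.94, a difference of -4.00 ± 0.95 (SE). Dog 7 came closest to the long survival carcinomas in CRYM. MIA, FST and MFSD12 were the 3 genes in which the gap between the groups exceeded 1 on the log2 scale.

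**Figure D2:**
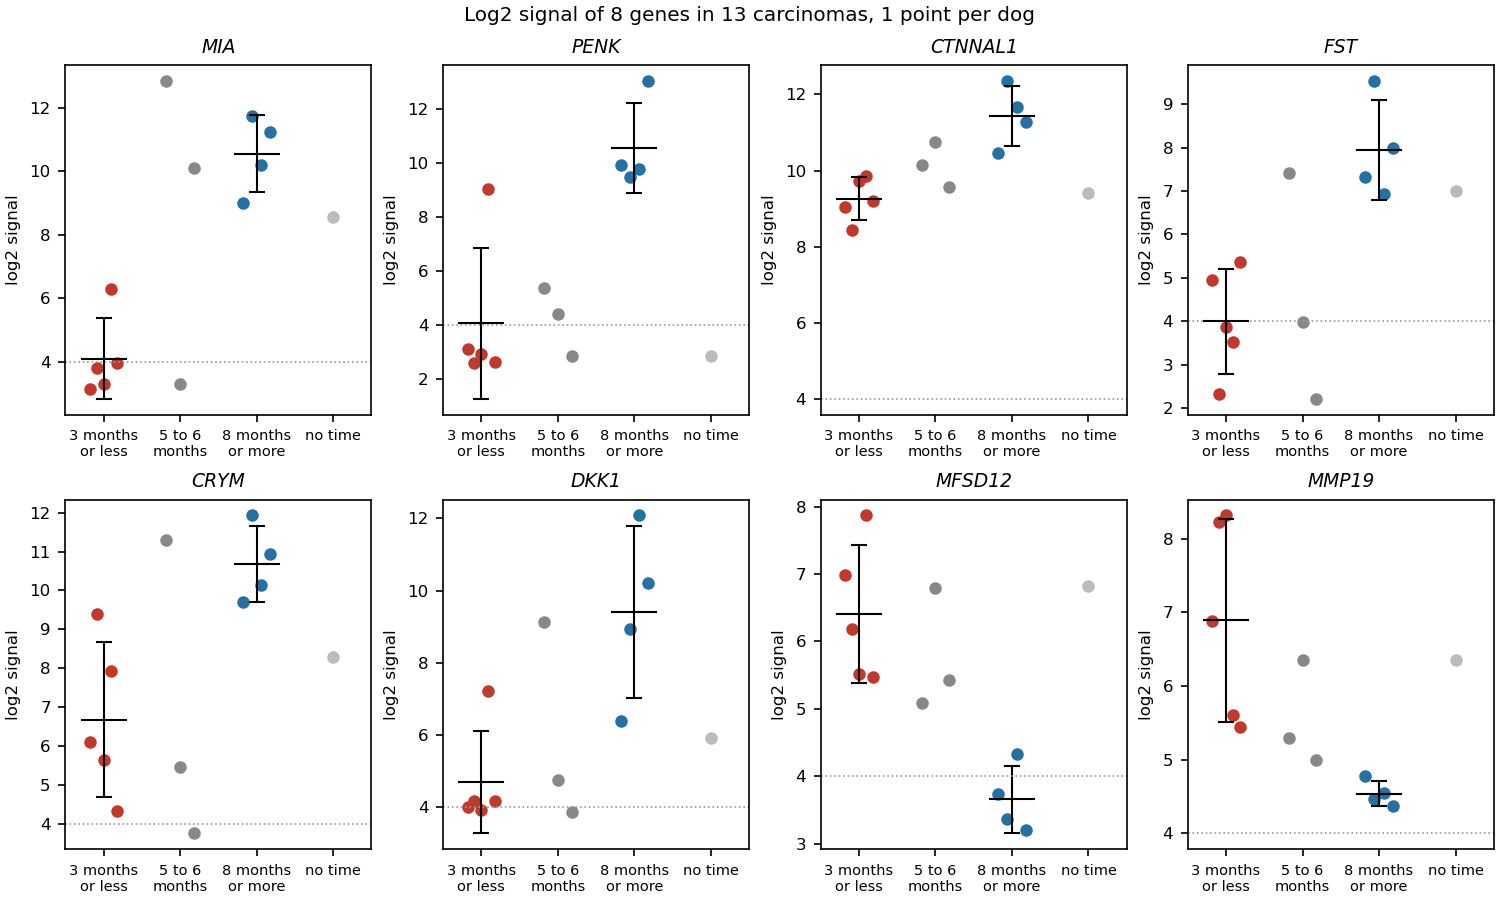
Log2 signal of 8 genes in each of 13 carcinomas, grouped by survival; horizontal bars give the mean and error bars the SD of the 2 compared groups, and the dotted line marks log2 4, above which a probe set counted as measured. MIA, PENK, CTNNAL1, FST and CRYM did not overlap between short (red) and long (blue) survival, DKK1 overlapped through dogs 1 and 10, and MFSD12 and MMP19 were higher in every short survival carcinoma.

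CTNNAL1 had a smaller but tighter difference. It read 9.05, 8.45, 9.72, 9.86 and 9.21 in the short survival dogs 4, 7, 9, 10 and 13, and 10.45, 12.35, 11.66 and 11.28 in the long survival dogs 1, 5, 12 and 14. The means were 9.26 ± 0.56 (SD, n = 5) and 11.43 ± 0.79 (SD, n = 4), and the difference was -2.18 ± 0.42 (SE), a 4.53-fold lower signal. The gap between the groups was 0.59. The carcinomas of 5 to 6 months read 10.14, 10.76 and 9.58 in dogs 2, 3 and 6, which placed dog 2 between the groups, dog 3 inside the long survival range and dog 6 inside the short survival range. Over the 12 carcinomas with a time, the slope of CTNNAL1 was 0.34 ± 0.06 (SE) per month on the log2 scale, with the smallest unadjusted p of that fit and an adjusted p of 0.9999 (limma). The 12 include the 9 compared carcinomas, and CTNNAL1 was chosen with earlier results of these data known. The slope is thus no independent test of the gene. Both tested probe sets of the gene had the same sign, the other at -1.60 ± 0.56 (SE).

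Of the 30 tested genes for catenins, cadherins and junctions, 3 had an unadjusted p under 0.05 and all 3 were lower at short survival, beside 1.82% of all genes. The count includes CTNNAL1, which was chosen with earlier results of these data known, so it is a description and no test of the family. Besides CTNNAL1 these were CTNND2, a delta-catenin that binds cadherins, at -2.69 ± 0.72 (SE), and CTNNA1, the classical alpha-catenin that ties cadherin complexes to actin, at -0.57 ± 0.21 (SE). CTNND2 read 3.11, 3.89, 3.58, 5.24 and 3.42 against 5.09, 8.34, 7.39 and 5.33, overlapping through dogs 1 and 10. Every short survival value except that of dog 10 lay below log2 4, so CTNND2 passed the filter through the long survival carcinomas. CTNNA1 read 13.00, 12.38, 12.36, 12.45 and 12.25 against 13.03, 12.95, 13.38 and 12.85, overlapping through dog 4. Other members of the epithelial junction were CDH1 (E-cadherin) at -0.49, CTNNB1 (beta-catenin) at -0.35 and TJP1 (a tight junction scaffold) at -0.04. Of the 30 tested members 20 were lower and 10 higher at short survival, among the latter F11R at 0.72. The list's median was -0.24, beside -0.0034 for all genes, and it came to -0.04 when dog 7 was left out.

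TMEM245, which encodes a membrane protein, lies next to CTNNAL1 among the protein-coding genes of dog chromosome 11 in the RefSeq annotation of UU_Cfam_GSD_1.0. It read 6.96, 7.30, 6.71, 7.19 and 7.83 at short survival and 8.42, 9.76, 8.45 and 9.18 at long survival. These groups did not overlap either, and the difference was -1.76 ± 0.37 (SE). The pair was the 1 case of neighbouring genes among the 78 whose groups did not overlap, and it was looked for after the values were seen.

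The opioid and neuropeptide genes were set beside PENK. Of the 28 genes of neuropeptides and the opioid system on the array, 7 passed the filter on low values, and PENK was the 1 member with an unadjusted p under 0.05. The processing proteins SCG5 and CPE, which serve in the maturation of peptide hormones, had differences of -2.26 ± 1.17 and -1.14 ± 0.56 (SE) with overlapping groups. SCG5 was low in dog 9 alone, at 4.17, and lay between 8.47 and 10.70 in the other short survival carcinomas. Of the 7 tested members 4 were lower and 3 higher, among them SCG3 at 0.55, and the list's median was -1.14.

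Of the other leading genes with lower signal, 4 differed by between -2.59 and -1.93. CSPG5, a brain-type chondroitin sulfate proteoglycan, read 6.25, 7.17, 6.40, 7.62 and 6.52 against 9.14, 9.69, 7.83 and 9.47, a difference of -2.25 ± 0.46 (SE). RIMS1, a scaffold of the presynaptic active zone, read 3.78, 3.45, 3.36, 3.84 and 4.50 against 6.31, 7.88, 6.56 and 4.76, a difference of -2.59 ± 0.56 (SE). Dogs 13 and 14 were the closest pair in RIMS1, and 4 of the 5 short survival values lay below log2 4. SLC27A2, an enzyme that activates long-chain fatty acids, differed by -2.11 ± 0.47 (SE), and USP53, of the ubiquitin-specific protease family, by -1.93 ± 0.49 (SE). RIMS1 and SLC27A2, each with 4 short survival values below log2 4, passed the filter through the long survival carcinomas. ZBTB20, a transcriptional repressor named because it was the gene most like CTNNAL1 across the carcinomas, read 10.00, 10.31, 11.52, 11.05 and 9.85 against 11.58, 13.20, 11.79 and 12.38. Its groups were separated by only 0.06.

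Among the tested members of the WNT pathway, 2 of 22 had an unadjusted p under 0.05, both lower, beside 1.82% of all genes. DKK1, a secreted WNT inhibitor, read 4.02, 4.17, 3.92, 7.22 and 4.17 at short survival and 6.40, 8.94, 12.08 and 10.22 at long survival. Dog 10 was the exception in the short group and overlapped dog 1, and the difference was -4.71 ± 1.10 (SE). LEF1, a transcription factor at the end of the pathway, read 3.55, 4.35, 4.22, 4.39 and 3.28 against 6.93, 8.35, 3.34 and 9.44, so that dog 12 sat with the short survival carcinomas. The LEF1 difference was -3.06 ± 1.03 (SE). SFRP4, another secreted inhibitor, was the member furthest in the other direction at 3.18 ± 1.51 (SE), with 12.10 in dog 9 and overlapping groups. The list's median was -0.48, and -0.11 without dog 13.

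In the TGF-beta and BMP pathway 2 of 27 tested genes had an unadjusted p under 0.05, both lower, beside 1.82% of all genes. They were FST and the receptor BMPR1A, which differed by -0.92 ± 0.40 (SE) with overlapping groups. The activin chains that FST binds differed by 0.07 (INHBA) and 0.10 (INHBB). Among other ligands BMP2 differed by 0.06 and TGFB1 by 0.22, TGFB3 was the highest member of the list at 0.70, and BMP7 was at -2.67, all with an unadjusted p above 0.05. The median of the pathway was 0.06.

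The basal and myoepithelial genes were the list with the lowest median. Of 21 genes listed, 18 were on the array and 15 were tested. The basal markers KRT5 and KRT14 were not among those measured, and TP63 exceeded log2 4 in only 1 of the 9 carcinomas and was not tested. The list thus rests on its other members. Of 15 tested, 13 were lower at short survival, the median difference was -1.50, and 4 had an unadjusted p under 0.05, all lower, where 1.82% of all genes were lower at that threshold. MYH11, the smooth muscle myosin heavy chain of the contractile apparatus, read 9.00, 4.57, 9.37, 7.80 and 8.95 at short survival and 10.32, 10.58, 11.18 and 11.53 at long survival. The MYH11 groups did not overlap, all 4 tested probe sets had the same sign, and the difference was -2.97 ± 0.89 (SE). KRT17, a basal keratin, read 9.41, 2.76, 6.76, 6.20 and 5.49 against 10.54, 7.56, 8.79 and 9.51, a difference of -2.98 ± 1.15 (SE), with dog 4 inside the long survival range.

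ITGA6, the integrin subunit that anchors basal cells to laminin, read 11.52, 10.01, 12.46, 12.33 and 11.84 against 12.32, 14.18, 12.74 and 14.70, a difference of -1.85 ± 0.61 (SE). EGFR differed by -1.05 ± 0.44 (SE). The members were not uniform, since the actin-associated genes ACTA2 (-0.26) and TAGLN (0.17), the intermediate filament gene VIM (-0.12) and the laminin chain gene LAMB3 (0.00) had differences near 0. The mean over the list was 9.58, 7.12, 10.49, 9.66 and 9.19 in the short survival dogs 4, 7, 9, 10 and 13 and 10.28, 10.76, 10.08 and 10.73 in the long survival dogs 1, 5, 12 and 14. Dog 7 was the lowest and dog 9 lay within the long survival range. Without dog 7 the median difference of the list was -0.70.

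**Figure D3:**
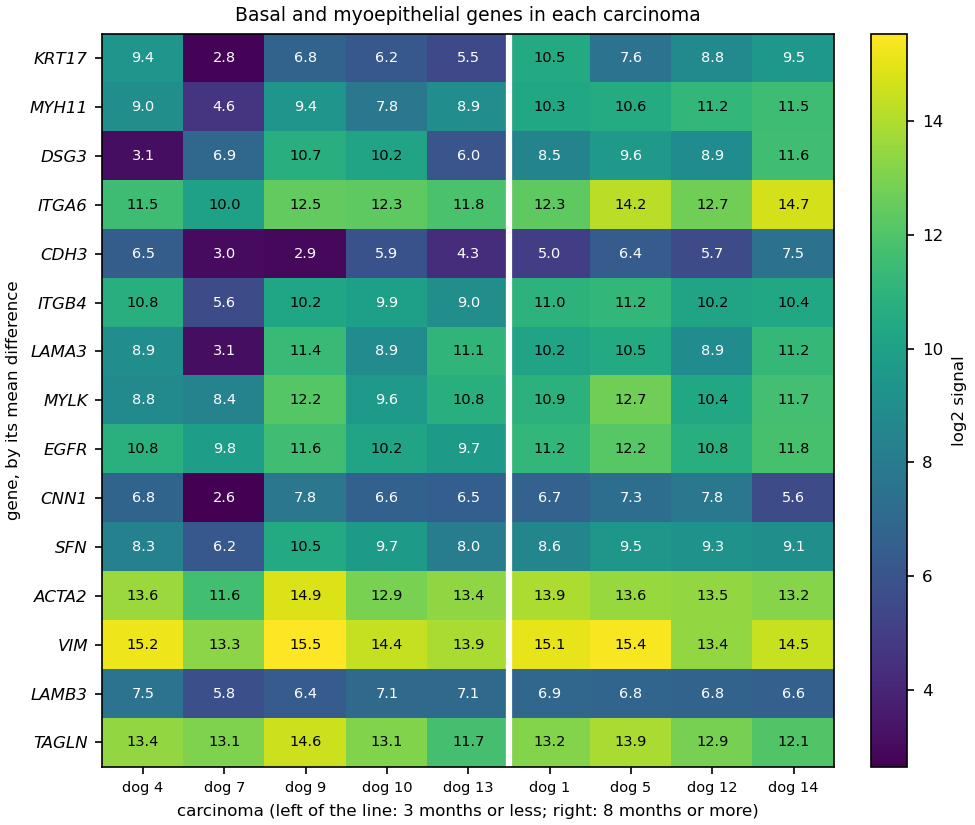
Log2 signal of 15 basal and myoepithelial genes (rows, ordered by mean difference) in the 5 short survival (left) and 4 long survival (right) carcinomas, with the value printed in each cell. MYH11 is lower in every carcinoma on the left, dog 7 has the lowest or near-lowest value in most rows, and ACTA2, VIM, LAMB3 and TAGLN are alike on both sides.

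TNNI2, listed among skeletal muscle genes as the inhibitory subunit of fast troponin, read 8.47, 1.40, 11.22, 3.66 and 5.99 at short survival and 11.38, 12.02, 11.11 and 11.83 at long survival. Dog 9 overlapped the long survival group, and the difference was -5.44 ± 1.67 (SE). The defining muscle genes were at the low end in all 9 carcinomas, with MYH1 at most 3.23, MYH2 at most 3.04, TTN at most 2.55 and TNNT3, the partner subunit of fast troponin, at most 2.59. Only 3 of the 20 muscle genes on the array passed the filter. Whether the probe set annotated as TNNI2 measures that transcript was not tested, and its values are given under the annotated name.

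The largest difference among the leading genes higher at short survival was 2.75, beside -6.49 among those lower. MFSD12, a transporter of the lysosome and melanosome, read 6.99, 6.19, 5.51, 7.87 and 5.47 at short survival and 3.73, 3.37, 4.33 and 3.20 at long survival. The groups were 1.14 apart, 3 of the 4 long survival values lay below log2 4, and the difference was 2.75 ± 0.53 (SE). MFSD12 thus passed the filter through the short survival carcinomas, the group where it was higher. MMP19, a matrix metalloproteinase, read 6.89, 8.23, 8.32, 5.60 and 5.44 against 4.77, 4.47, 4.54 and 4.37, a difference of 2.36 ± 0.64 (SE). The long survival carcinomas were close together in MMP19, whereas the short survival ones were spread out, with dogs 10 and 13 lowest. DRAM1, a lysosomal membrane protein linked to autophagy, read 6.98, 7.09, 6.55, 6.38 and 7.41 against 4.77, 5.98, 4.63 and 5.84, a difference of 1.58 ± 0.40 (SE).

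CD300LF, a receptor of myeloid cells, read 5.72, 6.48, 7.79, 5.32 and 5.87 against 5.01, 4.77, 3.76 and 3.57, a difference of 1.96 ± 0.54 (SE). The other leading genes of this direction differed by 0.53 to 1.07. They were ACER3, a ceramidase (1.07), LACC1, an enzyme of macrophage metabolism (1.01), HM13, the signal peptide peptidase of the endoplasmic reticulum (1.00), RRBP1, which binds ribosomes to that membrane (0.93), NUCB2, the precursor of nesfatin (0.88), and CIAPIN1, which serves in iron-sulfur cluster assembly (0.53). None of these groups overlapped, and RRBP1 had the narrowest gap at 0.04. The other tested probe sets of RRBP1 differed by 0.14 ± 0.24 and 1.38 ± 0.41 (SE).

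Since CD300LF and LACC1 are expressed in myeloid cells, the macrophage list was set beside them. Of 20 tested macrophage genes 18 were higher at short survival, with a median of 0.35, and 1 had an unadjusted p under 0.05. This was MARCO, a scavenger receptor, which read 6.77, 4.78, 7.23, 3.09 and 7.47 against 3.79, 3.25, 3.21 and 3.17. Dog 10 overlapped the long survival carcinomas, all of which lay below log2 4. MARCO thus passed the filter only through the group where it was higher. The defining genes CSF1R (0.07), CD68 (0.42), CD163 (0.84) and AIF1 (0.24) differed less. The list's mean ran from 8.95 to 9.50 at short survival and from 8.19 to 9.45 at long survival, so that the groups overlapped. Its median was 0.27 in the glands and -0.33 for the difference in change from gland to carcinoma. The part of macrophages in the difference of CD300LF, LACC1 or MMP19 was not tested.

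The glands of the same dogs are separate specimens and were compared in the same way. Of 8673 genes tested in 4 against 3 glands, 0 were called (0%, limma) and 76 had an unadjusted p under 0.05 (0.876%). Of the 20 leading genes 19 passed the filter in the glands, and 0 of them had an unadjusted p under 0.05 there, the smallest being 0.09393. Their sign matched the carcinomas in 9 of 19. CTNNAL1, for example, read 11.03, 11.03, 11.12 and 11.58 in the glands of the short survival dogs 4, 7, 10 and 13 and 11.74, 11.34 and 11.20 in those of dogs 5, 12 and 14. FST was at 8.45, 7.71, 8.27 and 7.92 against 8.07, 8.20 and 8.03. These gland values overlapped between the groups in both genes.

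Set against the gland of the same dog, the leading genes were also compared as a change within each dog. CTNNAL1 was below the gland by -1.98, -2.58, -1.26 and -2.37 in dogs 4, 7, 10 and 13, but at 0.61, 0.32 and 0.08 relative to the gland in dogs 5, 12 and 14. The difference of these changes was -2.38 ± 0.38 (SE), with an adjusted limma p of 0.841. FST changed by -3.50, -5.39, -4.76 and -2.56 against 1.46, -1.27 and -0.03. RIMS1 was below the gland in all 7 dogs, by -5.41, -5.49, -5.12 and -4.37 at short survival and by -1.12, -2.11 and -3.05 at long survival. MYH11 was likewise below the gland in all 7, by -4.06, -7.75, -5.85 and -3.71 against -2.56, -1.68 and -1.31. In these 4 genes every short survival dog had the lower change. Among the leading genes higher at short survival, the difference of changes was 2.25 ± 0.62 (SE) for MFSD12. It was smaller than the difference between carcinomas for DRAM1, at 0.51 ± 0.61 (SE, unadjusted limma p = 0.4328), and for MMP19, at 0.97 ± 1.08 (SE, unadjusted limma p = 0.398).

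MIA had another pattern, in which long survival carcinomas exceeded their glands by 5.19, 3.81 and 4.53, whereas short survival carcinomas stood at -2.51, -3.31, 1.33 and -1.43. PENK varied in the glands too, from 2.65 to 13.67, with dog 10 highest. TNNI2 was within 0.80 of the gland in the 3 long survival dogs and at -2.03, -10.35, -7.49 and -6.05 in the short survival dogs. The skeletal muscle genes MYH2, TTN and MYLPF were measurable in 5 of these 7 glands, where MYLPF read 10.18 to 10.94. They were not in the glands of dogs 4 and 5, where MYLPF read 2.09 and 2.08, although DES read 6.33 and 5.53 there. TNNI2 read 10.50 and 11.32 in those 2 glands, close to the 10.69 to 12.03 of the others. Over all genes, the test of the difference in change called 0 of 8918 (0%, limma), with 335 at an unadjusted p under 0.05 (3.76%). CTNND2 had the smallest p, with a difference of -3.36 ± 0.52 (SE) and an adjusted p of 0.841. These tests use the same 7 carcinomas as the main comparison and are not independent of it.

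**Figure D4:**
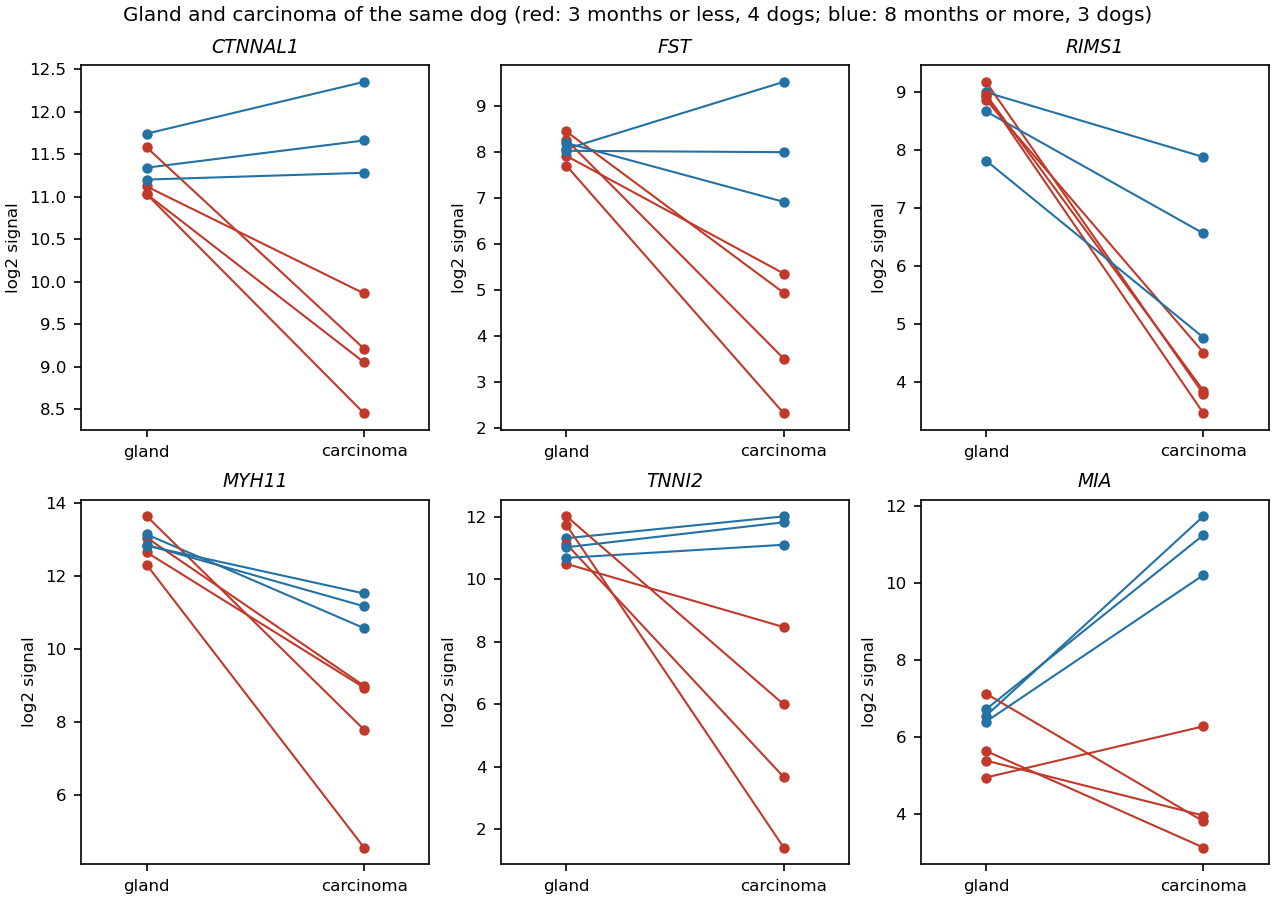
Log2 signal of 6 genes in the gland and the carcinoma of the same dog, joined by a line, for 4 short survival dogs (red) and 3 long survival dogs (blue). In CTNNAL1, FST, RIMS1, MYH11 and TNNI2 the glands overlap and every red line ends below every blue one, and in MIA the blue lines end at 10.21 to 11.74.

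Mitosis and DNA replication genes had mostly higher means at short survival, and none of them passed a threshold in the comparison of carcinomas. All 30 tested mitosis and spindle genes had a higher mean at short survival, with a median of 0.77, but 0 had an unadjusted p under 0.05. CDC20, an activator of the anaphase-promoting complex, had the smallest p, with 10.03, 10.74, 9.98, 11.41 and 8.65 against 9.81, 7.90, 9.46 and 9.30 and a difference of 1.05 ± 0.57 (SE). The mean over the list ranged from 6.66 in dog 13 to 9.49 in dog 10 at short survival, and from 6.26 in dog 5 to 8.86 in dog 1 at long survival. The groups thus overlapped, dog 13, with the shortest survival, had the lowest value of its group, and the median was 0.27 without dog 5 and 1.28 without dog 13. The list's median was -0.69 in the glands and 1.97 for the difference in change from gland to carcinoma. In that fit CDC20 differed by 2.21 ± 0.94 (SE), with an unadjusted p of 0.048 and an adjusted p of 0.9996 (limma). DNA replication genes were higher in 26 of 32, with a median of 0.32 and 0 at an unadjusted p under 0.05. G1 cyclins and E2F-RB genes did not share this, with 8 higher, 11 lower and a median of -0.13.

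Hormone receptors overlapped between the groups. ESR1 lay below log2 4 in all 9 carcinomas and was not tested, in a series labelled negative for that receptor. PGR, the progesterone receptor, differed by -0.44 ± 0.84 (SE), with a 95% interval from -2.31 to 1.43. ERBB2, which encodes HER-2, differed by 0.02 ± 0.74 (SE), with an interval from -1.62 to 1.66. NTRK2, a neurotrophin receptor, read 7.20, 7.82, 8.78, 6.84 and 7.84 against 9.19, 10.33, 8.73 and 8.51, overlapping through dog 9, and differed by -1.49 ± 0.49 (SE). IGF1, the ligand with the smallest p among the higher receptor tyrosine kinases and ligands, stood at 2.66 ± 1.41 (SE), with 11.76 in dog 9 and 8.90 in dog 4 and overlapping groups.

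Adhesion, hypoxia and immune genes were named by 1 member per list. VCAM1, an adhesion molecule of endothelium and of breast cancer cells that reach the lung, read 11.21, 11.17, 11.02, 9.94 and 9.49 against 11.70, 11.85, 12.29 and 11.56, a difference of -1.28 ± 0.39 (SE) with groups that did not overlap. In its list, genes of lung metastasis in human breast cancer cells, 8 of 13 tested members were higher at short survival (median 0.21). CA9, a carbonic anhydrase induced by hypoxia, differed by -2.75 ± 1.19 (SE) and was lowest in dogs 4 and 13, at 4.34 and 3.28. The other hypoxia genes did not share this size, with VEGFA at -0.09, LDHA at 0.00 and a list median of -0.18. CD59, a membrane inhibitor of complement, differed by -1.42 ± 0.58 (SE), and the alarmin IL33 by -1.66 ± 0.69 (SE). Their lists leaned the other way, with 10 of 17 complement and coagulation genes higher at short survival (median 0.41) and 16 of 26 chemokines and cytokines higher (median 0.33). IL33 read 12.35 in dog 5 and between 8.90 and 9.28 in the other long survival carcinomas. RPL22 differed by -1.36 ± 0.41 (SE), and 35 of 37 tested ribosomal protein genes were lower at short survival with a median of only -0.16. SESN1, a stress-induced target of p53, differed by -1.07 ± 0.46 (SE), whereas 16 of the 19 tested apoptosis and p53 target genes were higher at short survival (median 0.13).

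Stromal genes were highest in the same pair of short survival carcinomas. COL6A3, a collagen of fibroblasts, read 11.06, 6.63, 12.19, 9.10 and 8.69 against 7.68, 8.14, 7.18 and 7.55, and TNC, the matrix protein tenascin C, read 9.27, 4.80, 11.61, 5.39 and 5.53 against 7.04, 5.07, 3.67 and 4.78. Dogs 4 and 9 were the highest in both and dog 7 was the lowest of the short group in both. Of 27 tested collagen and fibroblast genes 23 were higher at short survival, with a median of 0.41, and 0.07 when dog 9 was left out. PLVAP, an endothelial gene, differed by 1.54 ± 0.77 (SE), the cholesterol enzyme DHCR7 by 2.23 ± 1.03 (SE), and the early response genes NR4A2 and ATF3 by 1.94 ± 0.90 and 1.46 ± 0.71 (SE). All 4 had overlapping groups and an unadjusted p above 0.05.

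Over all lists, 40 of 44 held at least 5 tested genes, and 26 of these had a median above 0 and 14 below it. No list mean was free of overlap between the groups, and no list member passed the adjusted test. The epidermis and erythrocyte lists had no tested member.

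**Figure D5:**
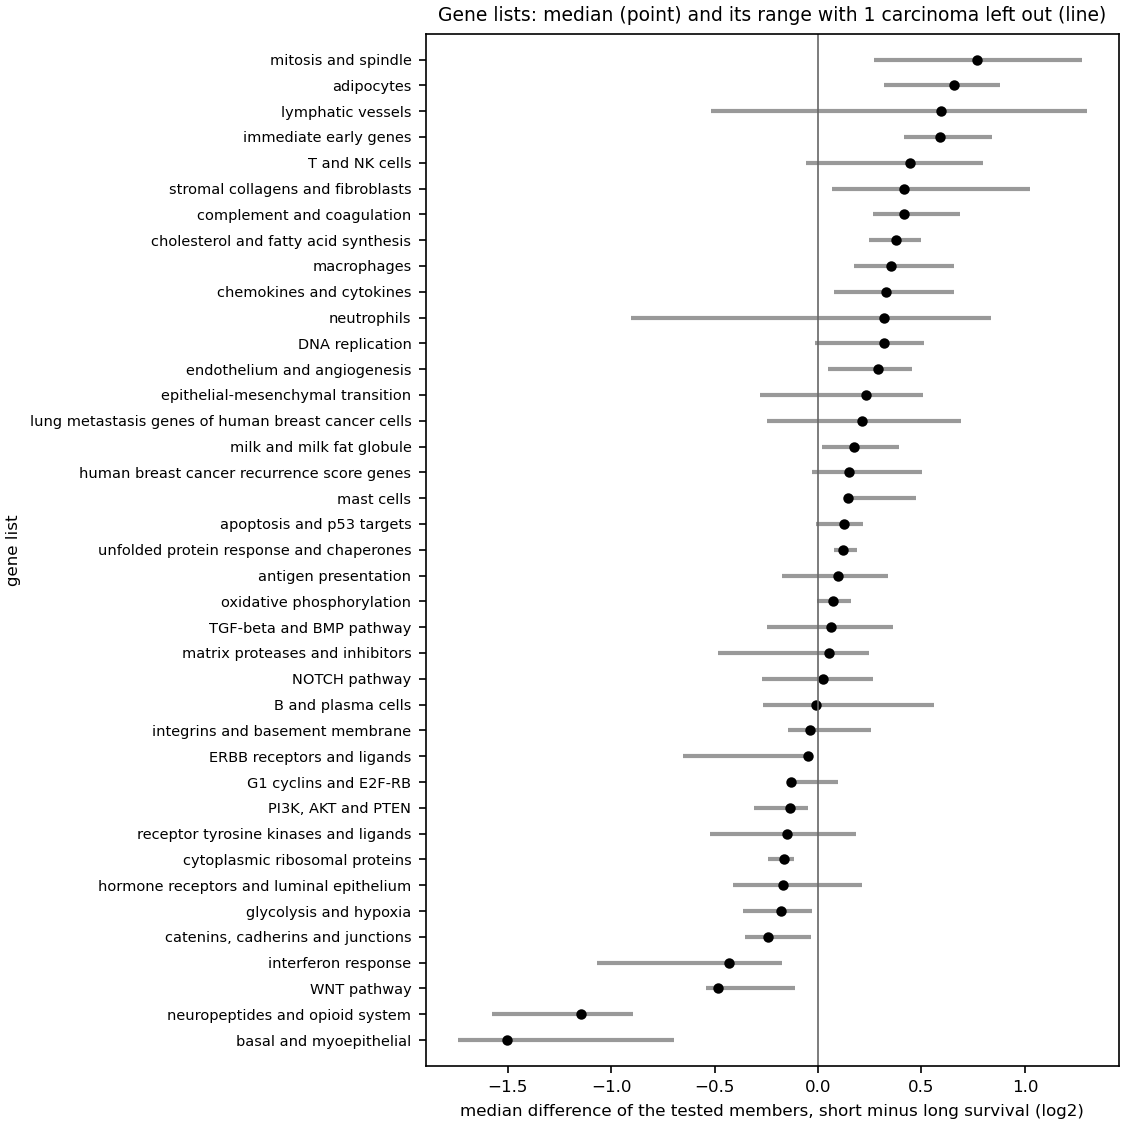
Median difference (short minus long survival, log2) of the tested genes in each of 39 lists, as points, with lines for the lowest and highest median when each of the 9 carcinomas was left out. The basal and myoepithelial list lies lowest at -1.50 (range -1.74 to -0.70) and the mitosis list highest at 0.77 (range 0.27 to 1.28); many other ranges cross 0.

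The 4 carcinomas outside the comparison did not fall on 1 side. Over the 20 leading genes, 10 in each direction, the carcinoma of dog 2 (6 months) was nearer to the long survival mean in 13, that of dog 3 (6 months) in 3, that of dog 6 (5 months) in 5 and that of dog 11 (no time) in 2. MIA showed the split, with 12.84, 3.29 and 10.11 in dogs 2, 3 and 6 and 8.55 in dog 11. PENK was at 5.37, 4.42 and 2.85 in dogs 2, 3 and 6 and at 2.84 in dog 11, all below the long survival range.

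Likeness across all 13 carcinomas was measured with Pearson's r, as a description over arrays that include those compared. The genes most like CTNNAL1 were ZBTB20 (r = 0.79), HADH (0.79) and KDM5A (0.79), and the most opposite were C7H1orf43 (-0.74), C15H1orf109 (-0.74) and LACC1 (-0.73). The genes most like PENK were DKK1 (r = 0.81), SMARCA2 (0.80) and CTDSPL (0.79), and the most opposite were ACER3 (-0.81), PDGFRL (-0.81) and RRBP1 (-0.79).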

How the data were processed

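Per the labels' protocols, biotinylated cRNA of 25 specimens was measured on Affymetrix canine arrays. The authors deposited 1 normalized log2 value per probe set and array. The submitters' processing notes list Partek, GCRMA and RMA with no version or role; the build behind the annotation is not stated in these sources. Values crowd at the low end, so differences against a mean below log2 4 are uncertain in size. No normalization was added. Of 43035 probe sets, 111 controls were left out. Probe sets above log2 4 in at least 4 of the 9 carcinomas (3 of the 7 glands) were tested with limma 3.58.1 in R 4.3.3 (lmFit, eBayes with trend, 2-sided, Benjamini-Hochberg, threshold 0.05), without covariates. Where several tested probe sets named a gene, the one with the highest mean in the 25 arrays stood for it. Names came from the platform annotation, in which 29254 probe sets name 1 gene and 439 several, the latter never named. Non-overlap means that every value of 1 group exceeds every value of the other.

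The change from gland to carcinoma was compared in 7 dogs with the dog as a block. The pairing comes from the dog number in the labels. With group means removed, each of the 7 carcinomas had a correlation of 0.1229 to 0.3759 with its own gland, where the median for glands of other dogs was -0.02. The fits were tested on simulated data. Label values were compared with exact permutation tests in scipy 1.17.1, and figures drawn with matplotlib 3.10.9.

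The groups, the 44 gene lists and the named genes were chosen with earlier results of these data known. Named were CTNNAL1 and PENK, the 10 smallest p per direction among genes without overlap, the smallest p per direction in each list, PGR, ERBB2, ESR1 and MKI67 (MKI67 is not named on the array), and the 3 genes most and least like CTNNAL1 and PENK. Not every gene of the rule is described. CTNND2, CTNNA1, KRT17, ZBTB20, BMPR1A, SCG5, CPE and list members given by a difference alone were chosen after their values were seen. Alternatives covered filters, scaling, moderation, weights, covariates, probe set choice, the survival slope and leaving out each dog.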

Additional observations from a re-analysis of the deposited data

Results flagged for a closer look

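In 104 groups of 4 or 5 carcinomas, over the genes named, 7 held a single value far from the others by Dixon's criterion, which chance alone gives in about 1 of 20 groups. The carcinoma of dog 10 stood above the other short survival carcinomas in 3 of them. PENK was 9.04 there against 2.59 to 3.09 in the others, DKK1 was 7.22 against 3.92 to 4.17, and MIA was 6.28 against 3.13 to 3.96. Among the long survival carcinomas, PENK was 13.02 in dog 14 against 9.48 to 9.91, IL33 was 12.35 in dog 5 against 8.90 to 9.28, and MARCO was 3.79 in dog 1 against 3.17 to 3.25. CTNNA1 was 13.00 in the short survival carcinoma of dog 4 against 12.25 to 12.45 in the others.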

How the results depend on the processing

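The count of genes called between short and long survival was 0 in the comparison as designed and in 22 of 24 alternatives. It was 1 with array weights (MIA), and leaving out 1 dog gave 0 to 2, the 2 being MIA and PENK without dog 10. With the replicate block, in which carcinoma and gland were paired by dog in 7 dogs, the count was 0, and no named gene was called. The glands and the change from gland to carcinoma gave 0 genes under every alternative, including each dog left out (0 to 0), although without dog 4 a probe set with no gene name reached an adjusted p of 0.006413 in the latter. The adjusted p of MIA ranged from 0.02155 to 0.9999 and that of PENK from 0.03187 to 1. Of the genes followed across the alternatives, ERBB2 and PGR, both within 1 SE of 0, changed sign. Not every gene named above was followed, and ACTA2, TAGLN, VIM and LAMB3 were among those left out. The ERBB2 difference was -0.20 with tumour size as a covariate, -0.11 with age, -0.018 with the title suffix and -0.0046 as a slope per month, and it ranged from -0.41 to 0.50 with each dog left out. The PGR difference was 0.53 against all carcinomas of 5 months or more and 0.23 with age, and it ranged from -1.23 to 0.10 with each dog left out. The median of the ERBB receptors and ligands ranged from -0.65 to -0.03 with each dog left out. Signals near the array's low end limit the size of the MIA, PENK, FST, RIMS1, SLC27A2, CTNND2, MFSD12, MARCO and DHCR7 differences, where 3 or more values of a group lay below log2 4. The cause of these changes was not tested.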
